A study of Mus musculus with 2 samples.

Results

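Irf8 Flt3 cells are the bone marrow cells of this study in which transcripts of the dendritic and monocytic transcription factor Irf8 and of the receptor Flt3 were found together. A cell was taken in when it held at least 1 Irf8 and at least 0.5 Flt3 UMIs (unique molecules, the counting unit) per 10000 UMIs of that cell, a scale written CP10K below. It also had to hold under 20 CP10K of the basophil genes Mcpt8 and Prss34 together, under 50 CP10K of the neutrophil genes S100a8 and S100a9 together, under 5 CP10K of the erythroid gene Car1 and no UMI of the B-cell gene Cd79a. The rule found 941 of 10342 retained cells (9.10%), of which 674 came from the hypoxia library and 267 from the control library. The cells were thus chosen by UMI levels measured in these same libraries, so the levels of these 8 genes are a description of the choice and are not results.

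Monocyte-dendritic progenitors (MDP) are bone marrow cells that can give rise to monocytes and to dendritic cells. The Flt3 receptor and its ligand maintain dendritic cell precursors, the colony-stimulating factor 1 receptor Csf1r serves the monocytic branch, and Irf8 is needed for monocyte, conventional dendritic cell and plasmacytoid dendritic cell development while it restrains the granulocyte programme. Monocytic commitment is marked by Ly6c2 and Klf4, plasmacytoid commitment by Siglech and Spib, and conventional dendritic cells carry MHC class II.

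Mice were of the outbred ICR stock, 7 to 8 weeks old, and their marrow was depleted of lineage-positive cells on magnetic beads before capture on the BD Rhapsody single-cell platform. The hypoxia group had spent 13 days in a chamber at 52.93 kPa, a pressure that the labels equate with 5000 m of altitude, with oxygen at 19.5%. The control group was killed on arrival, without time in the chamber. The comparison asks how marrow progenitors differ after hypoxia. Each group has 1 library, and how many mice it holds is not stated. Time, age and handling differ between the libraries along with the oxygen supply, and differences between animals and between conditions cannot be told apart.

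After removal of cells with 20% or more mitochondrial UMIs, 6392 hypoxia and 3950 control cells remained, with median depths of 21584.5 and 32287 UMIs. The Irf8 Flt3 cells were shallower, at a median of 13558 UMIs (range 3909 to 44163) in hypoxia and 19462 (4195 to 54114) in the control, with medians of 4194.5 and 5026 detected genes. Their UMIs summed to 10111317 in hypoxia and 5565478 in the control. Mitochondrial transcripts took a median of 7.27% of UMIs in hypoxia cells and 6.67% in control cells of the set. No cell index was shared between the Irf8 Flt3 cells of both libraries, and 23 were shared among all cells. Doublets called by Scrublet were 112 hypoxia (1.75%) and 33 control cells (0.83%), and they included 2 hypoxia and 0 control cells of the set, which were kept. No p-value can be given with 1 library per group, and the 95% intervals below cover counting error only.

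The label was checked on Ly86 and Tifab, markers of the set that its rule did not use. Ly86, which encodes the MD-1 partner of the receptor-like protein Cd180, stood at 383 CPM in hypoxia and 258 CPM in control Irf8 Flt3 cells, where CPM is a gene's UMIs per 1000000 UMIs summed over the set. That was 10.6 times the level of all other retained cells in hypoxia and 38.3 times in the control. Tifab, a regulator of innate immune signalling, had 385 CPM in hypoxia and 301 CPM in the control, 7.31 and 12.8 times the level of the other cells. After thinning each cell to 5000 UMIs, Ly86 was detected in 71.4% of hypoxia and 56.8% of control Irf8 Flt3 cells. Among Car1-positive erythroid cells without Irf8, which serve as the background for detection by free RNA, the shares were 0.517% and 0.191%, at median depths of 26862 UMIs in hypoxia and 41064.5 in the control before thinning.

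Further genes known from this progenitor stage had the following levels. Cx3cr1, the fractalkine receptor, had 122 CPM in hypoxia and 80.1 CPM in the control, and the perforin-like gene Mpeg1 had 364 and 199 CPM. Csf1r had 157 CPM in hypoxia and 133 CPM in the control, and Spi1, which encodes the myeloid factor PU.1, had 127 and 90.9 CPM. The stem and progenitor antigen Cd34 had 450 CPM in hypoxia and 525 CPM in the control. Kit, the stem cell factor receptor, had 111 and 130 CPM, which was 0.55 times the level of the other retained cells in hypoxia and 0.72 times in the control. Ly86 and Tifab were thus high, as were the rule's own Irf8 and Flt3. Parts of the set also carried genes of dendritic, granulocytic or lymphoid-primed cells, as described below, so it is called here by its genes.

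**Figure D1:**
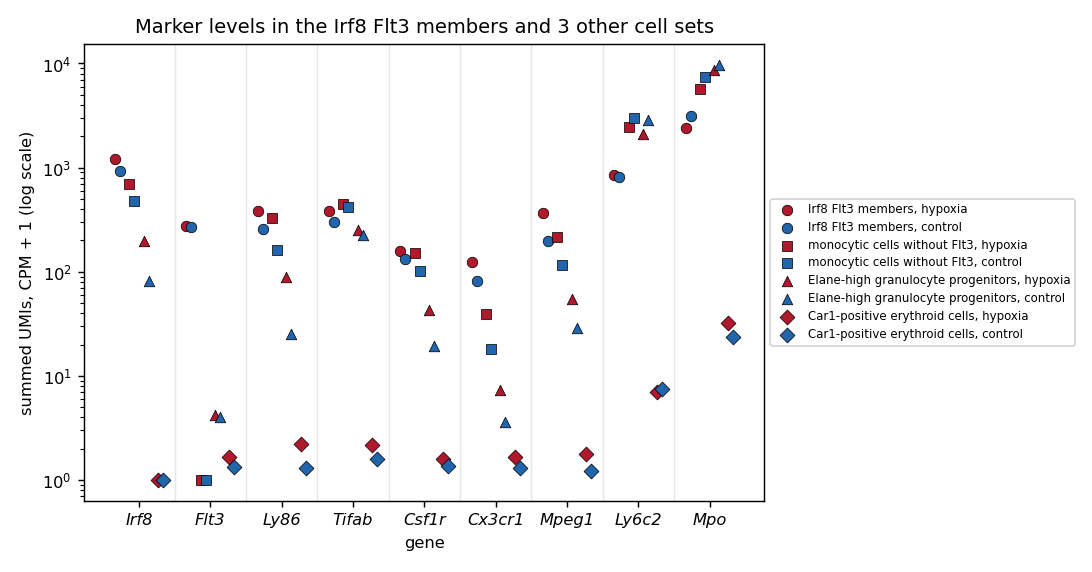
Summed level (CPM + 1, log scale) of 9 genes in Irf8 Flt3 cells and 3 comparison sets, with hypoxia in red and control in blue, 1 point per library. The Irf8 Flt3 cells lead for Cx3cr1 and Mpeg1 and lie below the monocytic and Elane-high cells for Ly6c2 and Mpo; points at 1 for Irf8 and Flt3 are zeros set by how those sets were defined.

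Cells just inside the limits were set beside cells just outside. Members with Irf8 from 1 to under 2 CP10K numbered 69 in hypoxia and 32 in the control, and 33 and 35 cells met all else with Irf8 from 0.5 to under 1 CP10K. Ly86 was at 195 CPM in hypoxia and 46.3 CPM in control cells just inside this limit, and at 44.6 and 14.8 CPM just outside. For Flt3, 125 hypoxia and 42 control members lay between 0.5 and 1 CP10K, and 67 and 37 cells met all else with a lower Flt3 level above 0. Tifab differed little across the Flt3 limit, with 412 CPM in hypoxia and 345 CPM in control cells inside and 405 and 410 CPM outside. Ly86 also differed little there, with 352 CPM in hypoxia and 251 CPM in control cells inside and 350 and 227 CPM outside. Neither marker thus set members apart from cells with less Flt3. Across the Irf8 limit Tifab had 168 CPM in hypoxia and 94.4 CPM in control cells inside, and 62.0 and 75.4 CPM outside. Membership rested on exactly 1 Flt3 UMI in 118 hypoxia and 19 control cells. Of 700 hypoxia and 280 control cells that met the Irf8 and Flt3 limits, the Car1 exclusion removed 15 and 3, and the Cd79a exclusion removed 5 and 8.

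The Irf8 Flt3 cells made up 10.5% of retained cells in hypoxia (95% interval 9.80 to 11.3%) and 6.76% in the control (6.0 to 7.59%), by the exact Clopper-Pearson method. The ratio of these shares was 1.56 (1.35 to 1.80). Set beside this, monocytic cells without Flt3 (Irf8 at 1 and Ly6c2 at 5 CP10K or more, no Flt3 UMI) made up 6.4% in hypoxia and 1.82% in the control, a ratio of 3.51 (2.73 to 4.57). Elane-high granulocyte progenitors held 5.74% in hypoxia and 4.96% in the control, a ratio of 1.16 (0.97 to 1.38). Car1-positive erythroid cells held 45.6% and 53.5%, and a share of 1 kind of cell depends on all others. Among cells below the Car1 limit, Irf8 Flt3 cells were 20.7% in hypoxia and 14.9% in the control.

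Ranges of single genes within the set, which overlap and are not cell types, differed between the libraries. Siglech, a plasmacytoid surface lectin, reached 1 CP10K in 117 hypoxia cells (17.4%, 14.6 to 20.4%) and 13 control cells (4.87%, 2.62 to 8.18%), with a ratio of 3.57 (2.01 to 6.90). Cd74, the invariant chain of MHC class II, reached 1 CP10K in 61 hypoxia cells (9.05%) and 7 control cells (2.62%), with a ratio of 3.45 (1.58 to 8.95). Ly6c2, the monocytic surface antigen, reached 5 CP10K in 46.3% of hypoxia and 35.2% of control cells, for a ratio of 1.31 (1.04 to 1.67). These 3 ranges were larger in the hypoxia library, with intervals of the ratio above 1.

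Mpo, which encodes the granule enzyme myeloperoxidase, reached 20 CP10K in 34.4% of hypoxia cells and 56.2% of control cells, the ratio being 0.61 (0.50 to 0.76). Dntt, the terminal transferase of lymphoid-primed progenitors, reached 1 CP10K in 17.7% of hypoxia and 24.3% of control cells, which gives a ratio of 0.73 (0.53 to 0.997). Both were smaller in the hypoxia library. For Csf1r (66.8% of hypoxia and 68.5% of control cells), Elane, a neutrophil granule protease (9.20% and 8.61%), and the proliferation gene Mki67 (68.2% and 60.3%) the interval of the ratio held 1.

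Detection at an equal depth of 5000 UMIs kept the order of the libraries for Siglech, Mpo and Dntt. Siglech was then detected in 15.8% of hypoxia and 5.64% of control Irf8 Flt3 cells, against 0.034% and 0% of erythroid cells, where 0 of 2096 control cells allows a share of up to 0.143%, the share that 3 counts would give. Mpo was detected in 70.6% of hypoxia and 92.5% of control cells of the set, against 8.17% and 3.20% of erythroid cells. Dntt was detected in 16.6% and 24.4%, against 0.276% and 0.143% of erythroid cells. Csf1r UMIs were found in 47.1% of hypoxia and 37.2% of control cells after thinning and in 70.3% and 74.5% before, so its order depended on depth. Elane UMIs were found in 22.3% and 26.3% after thinning and in 35.2% and 37.5% before, against the order of its CPM given below, and no order is read from them. Thinning left out 5 hypoxia and 1 control cells of the set, and 15 and 18 erythroid cells. Without thinning the shares with a UMI in the set were 22.1% and 10.9% for Siglech, 76.0% and 94.8% for Mpo, and 19.6% and 30.0% for Dntt.

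**Figure D2:**
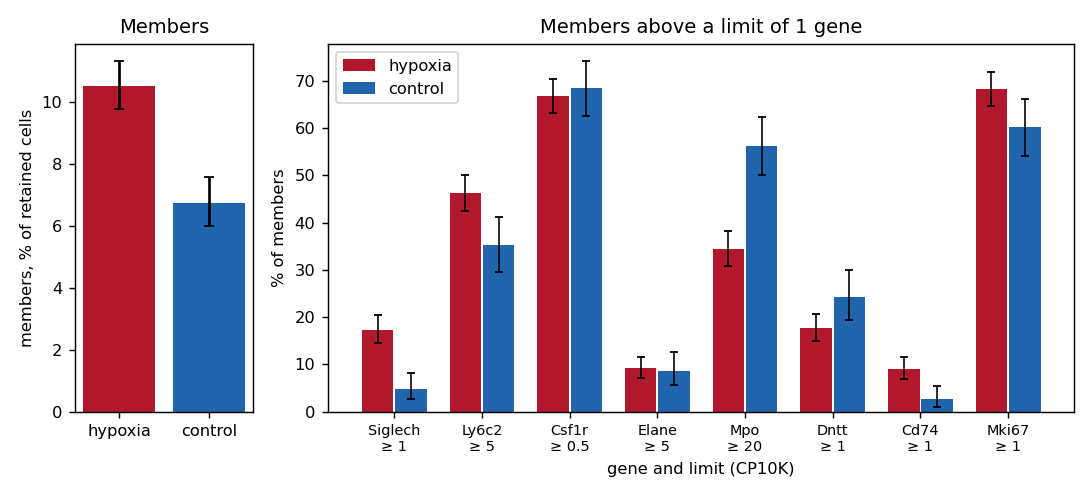
Left, Irf8 Flt3 cells as a percentage of retained cells; right, percentage of Irf8 Flt3 cells at or above a limit of 1 gene (CP10K), hypoxia in red and control in blue, with exact 95% intervals for counting error. Hypoxia bars are higher for Siglech (17.4% and 4.87%) and Cd74 (9.05% and 2.62%) and lower for Mpo (34.4% and 56.2%).

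Some of these ranges shared many cells and others shared few. Of the 62 hypoxia and 23 control cells at the Elane limit, 61 and 23 also reached that of Mpo and 49 and 22 that of Ly6c2. Of the 312 hypoxia and 94 control Ly6c2 cells, 84.3% and 90.4% reached the Csf1r limit. Of 119 hypoxia and 65 control cells with Dntt at its limit, 1 and 0 reached the Ly6c2 limit, and none of either library reached that of Elane. Of the 117 hypoxia and 13 control Siglech cells, none reached the Elane limit and 1 in each library reached that of Mpo, while 64 and 6 also reached that of Ly6c2. None of the 61 hypoxia and 7 control Cd74 cells reached the Mpo limit, while 26 and 5 reached that of Ly6c2. Only 27 hypoxia and 5 control cells reached no limit among Siglech, Ly6c2, Csf1r, Elane, Mpo, Dntt and Cd74.

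Other genes went along with each range. The genes given in this and the next paragraph were ranked by their difference inside against outside a range in both libraries, so they describe the ranges. Siglech cells held 405 CPM of the lymphoid surface gene Cd7 in hypoxia and 128 CPM in the control, against 44.9 and 7.63 CPM in the other Irf8 Flt3 cells. In the same cells Spib, a plasmacytoid transcription factor, had 132 and 56.5 CPM, and Itgax, the integrin CD11c, had 319 and 190 CPM. Dntt cells held 176 CPM of the interleukin-7 receptor Il7r in hypoxia and 144 CPM in the control, against 7.68 and 4.44 CPM elsewhere in the set.

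Summed together, Cd74 cells carried the other MHC class II genes and genes of type 1 conventional dendritic cells. H2-Aa, a class II alpha chain, had 3039 CPM in the 61 cells of hypoxia, and 6689 CPM in the 7 of the control, against 4.51 and 1.82 CPM in the other Irf8 Flt3 cells. Over all Irf8 Flt3 cells H2-Aa had 176 CPM in hypoxia and 83.9 CPM in the control. The level was thus higher in hypoxia over the whole set and lower in hypoxia inside the Cd74 range, where 7 cells carry the control value. The chemokine receptor Xcr1 had 119 CPM in hypoxia and 234 CPM in control Cd74 cells, and 0.10 and 0 CPM elsewhere in the set. Ly6c2 cells, which included 26 of the hypoxia and 5 of the control Cd74 cells, held 1 and 0 UMIs of Xcr1. Cells below the Ly6c2 and Siglech limits held 68 and 16. The Xcr1 level thus came almost wholly from Cd74 cells outside the Ly6c2 range. For H2-Aa the control held 91 UMIs in Ly6c2 cells and 376 in cells below both limits. Cells with Mpo at its limit held 2547 CPM of the granule protease gene Prtn3 in hypoxia and 2096 CPM in the control, against 464 and 443 CPM elsewhere.

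Gene levels were then compared over the whole set. Of 10384 genes that had 50 or more UMIs in all, 344 (3.31%) were at least 1.5-fold higher in hypoxia and 182 (1.75%) at least 1.5-fold lower, after 10 CPM had been added to both levels. The median log2 ratio of hypoxia over control over these genes was 0.03. Log2 ratios below carry the same added 10 CPM, which makes the difference of a low gene look smaller, and "higher" and "lower" mean past 1.5-fold on that scale. Ratios written as such are of CPM, without the addition.

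**Figure D3:**
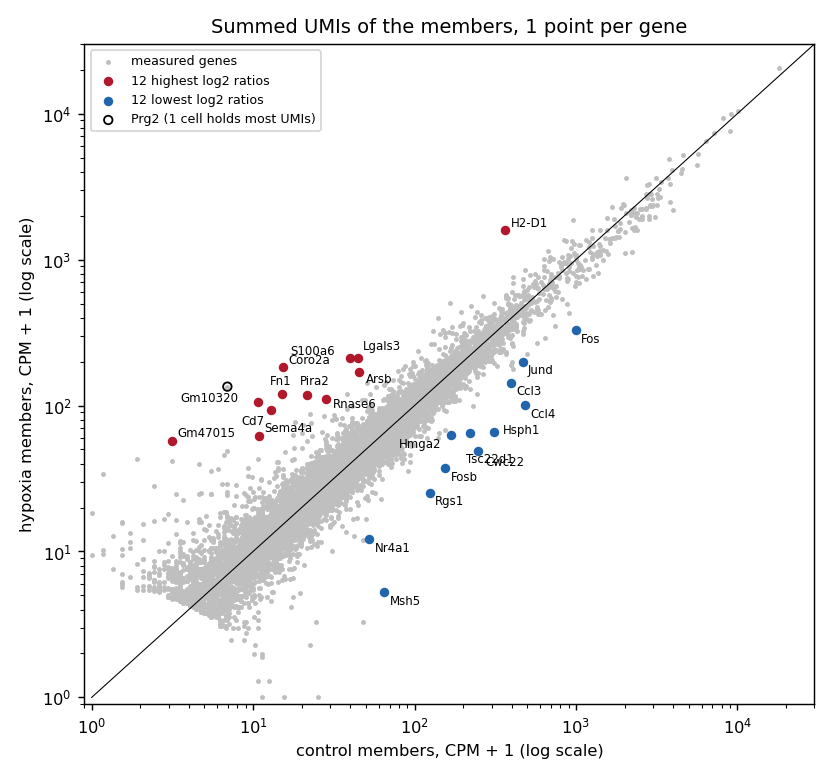
Summed levels (CPM + 1, log scales) of 10384 measured genes in Irf8 Flt3 cells, hypoxia on the vertical and control on the horizontal axis, with the 12 highest and 12 lowest log2 ratios named. Most genes lie near the diagonal, Coro2a (181 and 14.4 CPM) far above it and Msh5 (4.25 and 64.1 CPM) far below; the open circle is Prg2, described in the text.

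Coro2a, an actin-binding coronin, had the highest log2 ratio among genes named by rule, at 2.97. It had 181 CPM in hypoxia and 14.4 CPM in the control, a ratio of 12.6 (10.1 to 16.0), and UMIs were found in 85.3% of hypoxia and 21.7% of control Irf8 Flt3 cells. At 5000 UMIs per cell these shares were 57.7% and 5.64%, against 0.517% and 0.668% of erythroid cells. The log2 ratio of Coro2a was 1.29 in monocytic cells without Flt3, 0.44 in Elane-high and 0.01 in Car1-positive cells. It was high in each range of the set, from 2.51 in Ly6c2 cells to 3.66 in Siglech cells. Coro2a lies on chromosome 4 from 46536937 to 46602202 on the minus strand (GRCm38, GENCODE vM21 annotation).

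Msh5, a meiotic MutS homologue, had the lowest log2 ratio among these genes, -2.38. It had 4.25 CPM in hypoxia and 64.1 CPM in the control, with UMIs in 5.79% of hypoxia and 64.0% of control cells. The log2 ratio was -1.35 in monocytic cells without Flt3, -1.41 in Elane-high cells and -0.12 in Car1-positive cells. In Car1-positive cells both genes were low, Coro2a with 1.53 CPM in hypoxia and 1.47 CPM in the control and Msh5 with 1.81 and 2.79 CPM, and the contrast with the Irf8 Flt3 cells was not tested.

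Other genes among the 24 named by rule differed by about as much in every cell set compared. H2-D1, a classical MHC class I heavy chain on chromosome 17 (35262730 to 35267499), had 1590 CPM in hypoxia and 363 CPM in the control. The median Irf8 Flt3 cell held 15.5 CP10K in hypoxia (quartiles 11.3 and 20.5) and 3.58 CP10K in the control (2.20 and 4.86), so the interquartile ranges of the cells did not overlap. Its log2 ratio was 2.10, and it lay between 1.81 and 2.04 in the 3 comparison sets. Cwc22, a splicing factor, had 47.6 CPM in hypoxia and 248 CPM in the control, and its log2 ratio of -2.16 was matched by -2.08 in monocytic, -2.0 in Elane-high and -1.68 in Car1-positive cells. The uncharacterised gene Gm10320 had 105 CPM in hypoxia and 9.70 CPM in the control, a log2 ratio of 2.54, and 2.28 to 2.87 in the other sets.

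Genes of the monocyte list were mostly higher in hypoxia. Of 16 measured, 10 were higher and 0 lower, with a median log2 ratio of 0.97 against 0.03 over all genes. Fn1, which encodes fibronectin, had 119 CPM in hypoxia and 14.2 CPM in the control (log2 ratio 2.41), with UMIs in 26.3% and 13.5% of cells. Lgals3, the lectin galectin-3, had 212 CPM in hypoxia and 43.5 CPM in the control (2.05). Ms4a6c, a membrane protein of the monocytic lineage, had 507 and 166 CPM (1.56), and the median cell held 4.65 CP10K in hypoxia and 0.77 CP10K in the control.

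Ccr2, the receptor that guides monocytes out of the marrow, had 558 CPM in hypoxia and 263 CPM in the control (1.05). The lysosomal saposin precursor Psap had 1870 and 961 CPM (0.95), and Lyz2, lysozyme, had 314 and 154 CPM (0.98). The markers of the list that stayed within 1.5-fold included Ly6c2 itself, with 845 CPM in hypoxia and 820 CPM in the control, and F13a1, a coagulation factor of monocytes, with 733 and 887 CPM. The list's median was 0.62 in monocytic cells without Flt3 and 0.68 in Elane-high cells, against 0.13 in Car1-positive cells. Outside the list, S100a6, a calcium-binding protein, had 210 CPM in hypoxia and 38.6 CPM in the control (2.18). Among the 12 highest genes were also the paired receptor gene Pira2 (116 and 20.5 CPM), whose near-identical relatives make its count uncertain, and the lysosomal sulphatase gene Arsb (169 and 44.2 CPM). The last of them were the uncharacterised gene Gm47015 (56.6 and 2.16 CPM), the semaphorin gene Sema4a (61.0 and 9.88 CPM) and the ribonuclease gene Rnase6 (110 and 27.3 CPM).

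Of 11 measured plasmacytoid markers 7 were higher and 0 lower in hypoxia (median 0.84). Siglech had 72.0 CPM in hypoxia and 19.4 CPM in the control (log2 ratio 1.48), and Spib had 23.6 and 2.34 CPM (1.45). Ly6d, a surface antigen of plasmacytoid and lymphoid precursors, had 27.9 CPM in hypoxia and 5.93 CPM in the control (1.25), and the sodium pump subunit Atp1b1 had 79.9 and 31.8 CPM (1.10). Cd7, not in the list, had 91.8 CPM in hypoxia and 11.9 CPM in the control (2.22). Tcf4, the plasmacytoid master regulator, had 325 and 247 CPM (0.38), within 1.5-fold. When the 117 and 13 Siglech cells were left out, 296 genes were higher and 168 lower. In the cells left, Ly6d had 4.21 CPM in hypoxia and 4.10 CPM in the control, and Atp1b1 had 39.0 and 27.4 CPM. Spib had 7.39 CPM in hypoxia and 0.37 CPM in the control there, and Cd7 had 44.9 and 7.63 CPM. Inside the Siglech cells the median of the plasmacytoid list was 0.88 over 9 measured genes, with control values from 13 cells. The part of the larger share of Siglech cells in the levels over the whole set was not tested.

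Bst2, which encodes the tetherin antigen of plasmacytoid cells and is also interferon-induced, had 83.7 CPM in hypoxia and 26.4 CPM in the control (1.36, ratio 3.17, 2.66 to 3.8), and UMIs in 56.2% and 39.7% of cells. Its promoter is shown because Bst2 is in the plasmacytoid and the interferon list and its window holds the interferon-stimulated response element core. The core was searched as GAAA, NN and GAAA in a row, where N is any base, on both strands of the RefSeq windows from 250 bases before to 50 after a gene's start (GRCm38.p6). It occurs in 944 of 27025 such windows (3.49%). Capitals mark 2 overlapping matches, starting at position -130 from the start, in the 250 upstream bases at chr8:71537473-71537722, minus strand.
Bst2: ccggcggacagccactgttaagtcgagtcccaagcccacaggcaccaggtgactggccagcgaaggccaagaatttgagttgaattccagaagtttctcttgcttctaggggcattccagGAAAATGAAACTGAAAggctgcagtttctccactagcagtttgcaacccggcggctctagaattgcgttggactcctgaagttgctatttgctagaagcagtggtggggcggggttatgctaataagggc
The match describes these letters and is not evidence of a factor's binding. The interferon response list as a whole had 3 of 27 measured genes higher and 1 lower in hypoxia, with a median log2 ratio of 0.26. Ifitm3, an antiviral membrane protein, had 187 CPM in hypoxia and 168 CPM in the control (0.15), and Gbp7, a guanylate-binding protein, was lower with 46.3 and 84.1 CPM (-0.74).

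Apart from Flt3, which the rule used, 5 of 12 measured conventional dendritic markers lay higher and 0 lower (median 0.55). Cd209a, a lectin of dendritic cells and of dendritic-like monocytes, had 47.6 CPM in hypoxia and 5.93 CPM in the control (1.85), with UMIs in 15.6% and 3.0% of cells. Itgax had 75.2 and 21.9 CPM (1.42). Id2, an inhibitor of helix-loop-helix factors needed by conventional dendritic cells, had 78.4 CPM in hypoxia and 29.8 CPM in the control (1.15). Cst3, the protease inhibitor cystatin C, had 1366 and 838 CPM (0.70). The list's median was 0.44 in monocytic, 0.23 in Elane-high and 0.04 in Car1-positive cells. Among 10 class II genes 4 passed 1.5-fold upward and 0 downward (median 0.36), and H2-DMb1, a peptide exchange factor for class II, had 86.8 CPM in hypoxia and 53.0 CPM in the control (0.62).

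Granulocyte progenitor markers had 0 higher and 0 lower among 9 measured, with a median of -0.24. Mpo had 2383 CPM in hypoxia and 3159 CPM in the control (-0.41), Ctsg, cathepsin G, had 469 and 574 CPM (-0.29), and Elane had 268 and 194 CPM (0.44). The median changed sign in cells with Ly6c2 under 5 and Siglech under 1 CP10K, where it was 0.13. In the lymphoid priming list 2 of 11 measured genes lay higher and 2 lower (median -0.19). Lsp1, a leukocyte actin-binding protein, had 395 CPM in hypoxia and 140 CPM in the control (1.44), while the costimulatory receptor Cd27 had 61.3 and 106 CPM (-0.70). That median also changed sign, to 0.06, with a minimum of 200 UMIs per gene.

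Without Irf8, which the rule used, 19 myeloid transcription factors were measured, of which 2 were higher and 3 lower in hypoxia (median -0.10). Klf4, the monocyte factor, had 187 CPM in hypoxia and 86.1 CPM in the control (1.03), and Id2 was the other one higher. Cebpb, a factor of late monocytes and emergency granulopoiesis, had 49.4 and 80.7 CPM (-0.61). The lower pair beside it, Egr1 (21.8 and 60.7 CPM, -1.16) and Nr4a1 (11.2 and 51.6 CPM, -1.54), also belongs to the immediate early genes. Spi1 (0.44), Zeb2 (0.25), Cebpa (-0.27), Runx1 (-0.20) and Myb (-0.15) stayed within 1.5-fold. Tsc22d1, a leucine zipper regulator outside the list, had 64.3 CPM in hypoxia and 218 CPM in the control (-1.62). Hmga2, a chromatin architectural protein, had 61.4 and 167 CPM (-1.31).

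Of 15 cytokine receptors other than Flt3, 1 was higher and 1 lower (median 0.14). Csf2ra, the alpha chain of the GM-CSF receptor, had 163 CPM in hypoxia and 91.3 CPM in the control (0.77), and Csf3r, the G-CSF receptor of the granulocyte line, had 28.4 and 51.6 CPM (-0.68). Csf1r (0.23), Kit (-0.21), Il6ra (0.14) and the interferon receptor gene Ifnar2 (-0.16) stayed within 1.5-fold. Among chemokine receptors and adhesion molecules 4 of 12 were higher and 0 lower (median 0.30), including the integrin chains Itgb7 (141 and 49.8 CPM, 1.34), Itgb2 (72.4 and 35.6 CPM, 0.85) and Itga4 (203 and 117 CPM, 0.74). Cd93, a surface lectin of early progenitors, had 253 CPM in hypoxia and 405 CPM in the control (-0.66) and was the MDP marker that was lower.

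Of 19 measured genes of MHC class I and peptide loading 7 lay higher and 0 lower (median 0.41). The medians in the comparison sets were close, at 0.32 in monocytic, 0.47 in Elane-high and 0.46 in Car1-positive cells. H2-Q7 had 41.7 CPM in hypoxia and 0.90 CPM in the control (422 and 5 UMIs), and H2-Q6 had 40.7 and 2.16 CPM; both have near-identical neighbours among which reads can be split, so their separate levels are uncertain. Of 15 lysosome and antigen processing genes 7 lay higher and 0 lower (median 0.52), and they included the proteases Ctss (262 and 125 CPM, 1.01) and Ctsb (354 and 196 CPM, 0.82) and the progranulin gene Grn (346 and 169 CPM, 0.99).

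Immediate early and AP-1 genes, which are transcribed within minutes of a stimulus, were lower in hypoxia. Of 20 measured, 16 were lower and 0 higher, with a median log2 ratio of -1.06. Fos had 327 CPM in hypoxia and 997 CPM in the control (-1.58), and the median cell held 1.59 CP10K in hypoxia (quartiles 0 and 5.10) and 7.74 CP10K in the control (3.21 and 14.9). Fosb had 36.4 and 153 CPM (-1.82), and Jund had 199 and 466 CPM (-1.19). Dusp1, a phosphatase that ends MAP kinase signalling, had 98.0 CPM in hypoxia and 228 CPM in the control (-1.14). The list's median was -0.41 in monocytic, -0.45 in Elane-high and -0.19 in Car1-positive cells. For Fos the log2 ratios in those sets were -0.20, -0.59 and -0.59.

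Secreted signals of the same cells were also among the lowest genes. Ccl4, an inflammatory chemokine, had 99.8 CPM in hypoxia and 481 CPM in the control (-2.16), and its neighbour Ccl3 had 143 and 393 CPM (-1.40). Ccl4 UMIs were found in 34.1% of hypoxia and 70.8% of control cells, and at 5000 UMIs per cell in 21.97% and 59.8%, against 1.65% and 1.0% of erythroid cells. Osm, the cytokine oncostatin M, had 11.0 CPM in hypoxia and 47.3 CPM in the control (-1.45). Of 10 measured chemokines and cytokines 5 were lower and 2 higher, with a median of -0.62. Ccl6, one of those higher, had 39.9 and 13.3 CPM (1.10). Rgs1, a regulator of chemokine receptor signalling outside the list, had 24.3 CPM in hypoxia and 123 CPM in the control (-1.95).

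Heat-shock chaperones had 9 of 18 measured genes lower and 0 higher, with a median of -0.58. Hsph1, a nucleotide exchange factor for Hsp70, had 64.6 CPM in hypoxia and 308 CPM in the control (-2.09), with UMIs in 47.9% and 92.5% of cells. Hsp90aa1, the inducible Hsp90, had 1124 and 2216 CPM (-0.97), Dnaja1, a co-chaperone of Hsp70, had 290 and 643 CPM (-1.12), and Chordc1, an Hsp90 co-chaperone, had 119 and 244 CPM (-0.97). Here the comparison sets went along: the list's median was -0.35 in monocytic, -0.23 in Elane-high and -0.74 in Car1-positive cells, and Hsph1 had -1.64, -1.46 and -2.22.
The heat-shock element, searched as TTC, NN, GAA, NN and TTC in a row or as its reverse complement GAA, NN, TTC, NN and GAA, on both strands, occurs in 146 of 27025 RefSeq promoter windows (0.54%). It was found in 3 of the 15 measured chaperone genes with an entry (20%), namely Hsph1, Chordc1 and Hspe1. The sites of the first pair are shown because both genes were lower in hypoxia, with matches in capitals. The 30 bases shown for Hsph1 are at chr5:149636287-149636316, minus strand, and the match in them starts at position 36 after the RefSeq start. The 30 bases shown for Chordc1 are at chr9:18292260-18292289, plus strand, and 3 matches in them overlap, the first from position -4.
Hsph1: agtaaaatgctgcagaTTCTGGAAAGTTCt
Chordc1: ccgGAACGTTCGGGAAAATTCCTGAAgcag
A match is a description of the letters, and windows without one lack these letters in their 300 bases only.

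Of 18 measured targets of the hypoxia-inducible factors (HIF), which act in the oxygen response, none passed 1.5-fold in either direction, and their median was 0.00. Over all measured genes 5.07% passed in either direction, so a count of 0 or 1 in a list of 18 is near the background. Bnip3, a mitophagy receptor induced by HIF-1, had 26.2 CPM in hypoxia and 19.2 CPM in the control (0.31), the demethylase Kdm3a had 35.1 and 21.0 CPM (0.54), and the collagen hydroxylase P4ha1 had 30.6 and 47.3 CPM (-0.50). Of 18 glycolysis genes 1 was higher and 0 lower, with a median of -0.01. That was Pfkp, a phosphofructokinase, with 29.3 CPM in hypoxia and 15.1 CPM in the control (0.65), while Gapdh had 1073 and 1408.5 CPM (-0.39). Mitochondrially encoded genes had 0 of 13 past 1.5-fold and a median of 0.20. In the unfolded protein list 3 of 18 were lower and 0 higher (median -0.27), led by Ddit3, the stress factor CHOP, with 9.0 and 29.8 CPM (-1.07). The glucocorticoid response list had 1 of 11 lower, Dusp1 above, and 0 higher (median -0.17).

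S-phase genes had 0 of 25 higher or lower and a median of -0.03, and G2/M genes had 4 of 25 higher and 0 lower and a median of 0.39. The difference between the phases was not tested. Ube2c, a ubiquitin-conjugating enzyme of mitotic exit, had 433 CPM in hypoxia and 244 CPM in the control (0.80), and the centromere histone gene Cenpa had 242 and 141 CPM (0.74). The G2/M median was 0.44 in monocytic, 0.08 in Elane-high and 0.20 in Car1-positive cells. In the 117 hypoxia and 13 control Siglech cells the order of the phases was turned, with medians of 0.51 for S phase and -0.21 for G2/M. No value over all genes was set beside these medians. The control values there rest on 13 cells, with 35 UMIs of the S-phase gene Pcna and 4 of Ccne1, so this order is uncertain.

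**Figure D4:**
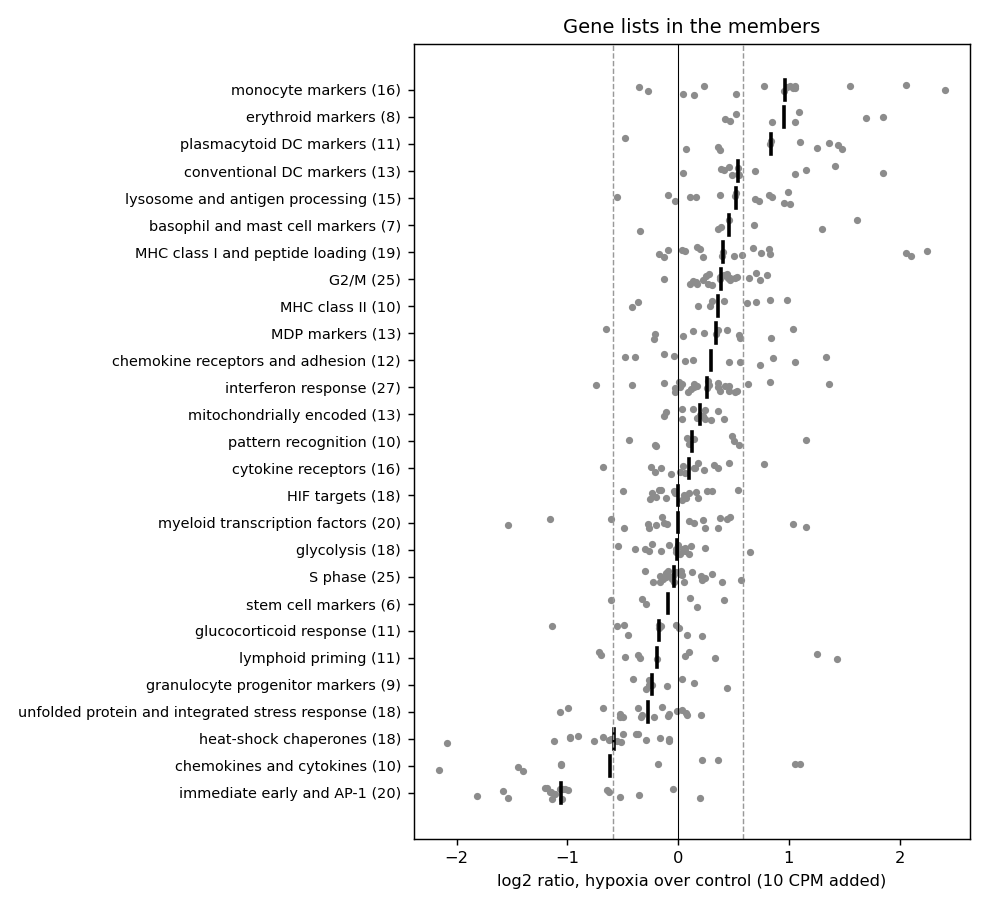
Log2 ratio of hypoxia over control for each measured gene (grey points) of the lists with at least 5 measured genes, with the list median as a black bar and the number measured in brackets; dashed lines mark 1.5-fold. Monocyte markers lie at the top (median 0.97) and immediate early genes at the bottom (-1.06), with HIF targets and glycolysis around 0.

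Erythroid transcripts were also more abundant in the hypoxia members. Apart from Car1, which the rule limits, 5 of 7 measured erythroid markers were higher and 0 lower (median 1.06), and the list summed to 549.7 CPM in hypoxia and 214 CPM in the control, with Hba-a2 at 0 in the control. Most of either sum came from Tfrc and Car2, whose levels are given under other observations. Tfrc had 938 CPM in hypoxia and 473 CPM in control Siglech cells, so the sums are not of erythroid transcripts alone. Hba-a1, alpha globin, had 39.0 CPM in hypoxia and 3.59 CPM in the control, and its log2 ratio of 1.85 compares with 1.78 in Car1-positive cells. Basophil and mast cell markers other than the rule's Mcpt8 and Prss34 had 2 of 5 higher and 0 lower (median 0.46) and summed to 289 CPM in hypoxia and 207 CPM in the control, with Cd200r3 at 0 in the control. Most of these sums came from 1 gene of the list, Il6st, which had 222 CPM in hypoxia and 204 CPM in control Ly6c2 cells. In cells below the Ly6c2 and Siglech limits Il6st had 210 CPM in hypoxia and 136 CPM in the control. Cpa3, another gene of the list, had 55.5 and 8.62 CPM there, and 5.11 and 0.90 CPM in Ly6c2 cells. At 5000 UMIs per cell the basophil protease gene Prss34 was detected in 12.3% of hypoxia and 1.86% of control erythroid cells, which should lack it. Neutrophil markers other than the rule's S100a8 and S100a9 summed to 19.4 CPM in hypoxia and 14.6 CPM in the control, with Ltf at 0 in the control and 1 gene measured, within 1.5-fold. Macrophage markers summed to 15.3 CPM, with C1qc, Mertk and Cd5l at 0, and to 10.1 CPM, with C1qa and C1qb at 0 as well. The part of these transcripts in the results above was not tested.

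Most remaining lists of other cells had summed levels close to each other in both libraries. B-lineage markers summed to 31.0 CPM in hypoxia and 39.2 CPM in the control, with Cd79a at 0 by the rule. T, NK and innate lymphoid markers summed to 131 and 125 CPM, with Cd3e and Gzma at 0, and 1 of 4 measured genes, Klrd1, was higher (14.9 and 3.77 CPM). Megakaryocyte markers summed to 12.1 CPM in hypoxia and 14.6 CPM in the control with Gp1bb at 0, and stem cell markers to 108 and 124 CPM. Eosinophil markers summed to 154 and 7.37 CPM, with Ear1, Ear6 and Il5ra at 0 in the control, and nearly all of this came from Prg2. Prg2, an eosinophil granule protein, had 134 CPM in hypoxia and 5.93 CPM in the control, but a single hypoxia cell of 18831 UMIs, not called a doublet, held 1233 of its 1352 UMIs in that library. It was singled out after its values were seen.

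List medians were also taken in ranges of the set, over the genes with 50 or more UMIs in both ranges compared. In Ly6c2 cells (312 hypoxia and 94 control) 7 of 12 monocyte genes were higher (median 0.75), and in cells below the Ly6c2 and Siglech limits that reached the Dntt or the Mpo limit, here called the early range (206 and 137 cells), 2 of the 12 were (0.08). The lysosome list had 7 of 14 genes higher in Ly6c2 cells (median 0.60) and 0 in the early range (0.09). The G2/M list had 9 of 25 higher (0.55) and 0 higher (-0.02), and the plasmacytoid list, of which 6 genes could be compared, had medians of 1.01 and 0.15. Over all genes measured in each range, 521 of 9107 were higher in Ly6c2 cells and 197 of 8957 in the early range. Calls were thus more common over all genes in Ly6c2 cells too. The early range leaves out Siglech cells by its limit, while 64 of the 312 hypoxia and 6 of the 94 control Ly6c2 cells reached that limit. The plasmacytoid contrast is thus partly set by the cuts. The conventional dendritic list is affected as well, since no Cd74 cell reached the Mpo limit. In the early range 7 of its 15 genes were measured, and Xcr1 had 0 hypoxia and 0 control UMIs. Ly6c2, on which the ranges were cut, is also in the monocyte list. Psap had a log2 ratio of 0.93 in Ly6c2 cells and 0.04 in the early range, where it stood at 516 CPM in hypoxia and 502 CPM in the control. Ccr2 had 0.94 and -0.36, and Ms4a6c had 1.31 and 1.51. Fn1 and Lgals3 could not be compared, since the early range held 9 hypoxia and 10 control UMIs of Fn1 and 5 and 5 of Lgals3.

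Immediate early and heat-shock genes had like medians in both ranges. The median of the immediate early list was -0.98 in Ly6c2 cells and -0.98 in the early range, and that of the chaperones was -0.49 and -0.48. MHC class I had 0.42 and 0.38, and Coro2a, Cwc22 and Ccl4 had log2 ratios of 3.33, -2.12 and -2.09 in the early range. The ranges were added after the data had been seen, they were set on genes of the same cells, and the difference between ranges was not tested.

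**Figure D5:**
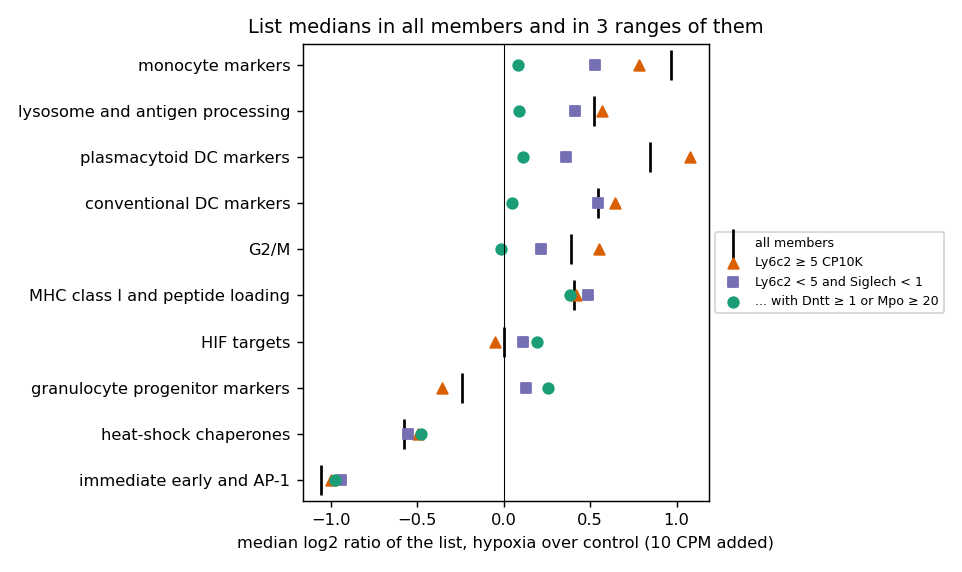
Median log2 ratio (hypoxia over control) of 10 lists in all Irf8 Flt3 cells (black bars), in Ly6c2 cells (triangles), in cells below the Ly6c2 and Siglech limits (squares) and in those of the last range with Dntt or Mpo at its limit (circles), each over the genes with 50 or more UMIs in that range. Monocyte, lysosome and dendritic lists lie near 0 in the last range (0.08, 0.09 and 0.04 to 0.11), while immediate early genes lie near -1 in all. For the dendritic lists this is partly set by the cuts that define the last range.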

How the data were processed

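The authors deposited unnormalized counts of molecules (UMIs), 1 table per library. Per the file headers, these came from version 1.7.1 of the BD WTA Rhapsody Analysis Pipeline, with GENCODE M19 on GRCm38 and error correction of molecules. The submitters' processing notes also name Bowtie2. No source used here states how cells were called. A gene column missing from 1 table was taken as 0 there.

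Cells with under 20% mitochondrial UMIs were retained and the membership rule was applied to UMIs per 10000. UMIs of members were summed per library and scaled to counts per 1000000 (CPM) of the members' total. Log2 ratios are of hypoxia over control with 10 CPM added, and a gene counts as measured from 50 UMIs in all. Shares have exact Clopper-Pearson intervals, ratios exact conditional intervals at 95%, which treat each UMI as independent and cover counting error only. With 1 library per group no test between groups was run. The calculation was tested on simulated data. Thinning drew 5000 UMIs per cell, with a fixed random seed for each draw, and Scrublet (scanpy 1.11.5, seed 0) called doublets, which were kept. Python 3.11.15, numpy 2.4.6, scipy 1.17.1 and pandas 2.3.3 were used.

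Genes were named by rule: among measured genes outside the membership rule with at least 50 CPM in the higher library, an interval of the ratio without 1, and at most 25% of UMIs in a single cell, the 12 highest and 12 lowest log2 ratios. Up to 5 genes of each of 33 lists, and all genes of 6 of these (MDP, monocyte, conventional and plasmacytoid dendritic cell markers, myeloid transcription factors, cytokine receptors), were named too. Genes of the subset profiles were taken by their contrast between ranges. The members and the lists were chosen with earlier results of these data known. Alternatives were TMM factors from edgeR 4.0.16 (R 4.3.3), median-of-ratios factors, other added CPM, other UMI minimums, cell means, thinning, and other membership limits. Coordinates are those of GENCODE vM21 on GRCm38, where 10334 of the 10384 measured genes were found, and promoter windows are from RefSeq (GRCm38.p6).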

Additional observations from a re-analysis of the deposited data

Results flagged for a closer look

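Log2 ratios of 3 named genes had opposite signs in the Irf8 Flt3 cells and in the Car1-positive erythroid cells, past 1.5-fold in both, and these differences were not tested. Tsc22d1 had -1.62 in Irf8 Flt3 cells (64.3 CPM in hypoxia and 218 CPM in the control) and 0.66 in Car1-positive cells. Mllt3, a chromatin reader of stem cells, had -0.61 in Irf8 Flt3 cells (12.2 and 23.7 CPM) and 0.91 in Car1-positive cells. Gbp7 had -0.74 in Irf8 Flt3 cells and 0.70 in Car1-positive cells. Each sign rests on 1 library per group.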

How the results depend on the processing

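The share of Irf8 Flt3 cells was 1.39 to 1.57 times as large in hypoxia as in the control under every membership, doublet, mitochondrial and denominator setting tried. The shares themselves moved to 7.68% in hypoxia and 5.04% in the control with limits of 2 CP10K for Irf8 and 1 for Flt3, to 8.01% and 5.37% with the rule applied to cells thinned to 5000 UMIs, and to 20.7% and 14.9% of cells below the Car1 limit. Counts of genes followed the added CPM: 881 were higher and 480 lower with 1 CPM added, and 98 and 47 with 50 CPM. Thinning gave 551 higher, and 306 were higher and 209 lower with TMM factors. The 24 genes at the ends of the ranking kept their call under all planned settings.

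Among alternatives chosen after seeing the data, 521 of 9107 measured genes were higher in Ly6c2 cells alone. In cells below the Ly6c2 and Siglech limits with Dntt or Mpo at its limit, 197 of 8957 were higher. In that last range the log2 ratio turned to -0.36 for Ccr2, -0.079 for Itgax, -0.00089 for Cst3, -0.16 for Itgb2 and -0.45 for the interferon gene Ifi27l2a, which had -0.36 in all cells below both limits. The G2/M median turned to -0.02, that of chemokine receptors and adhesion to -0.16 and that of granulocyte progenitor markers to 0.26. The cause was not tested. No paired analysis was possible because each group has 1 library and the labels carry no replicate numbers, and no replicate could be left out. Depth limits low genes most: at a control total of 5565478 UMIs, few UMIs lie behind levels of a few CPM, and 26 measured genes had over 25% of their UMIs in a single cell.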

Other observations

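A few further genes differed as well. Tfrc, the transferrin receptor, had 331 CPM in hypoxia and 149 CPM in control Irf8 Flt3 cells (log2 ratio 1.09), against log2 ratios of 0.63 in monocytic, 0.70 in Elane-high and 0.26 in Car1-positive cells. Car2, a carbonic anhydrase, had 119 and 52.1 CPM (1.06). In the pattern recognition list 1 of 10 measured genes was higher and 0 lower (median 0.12). That was Cd180, the surface partner of the Ly86 product, with 61.3 CPM in hypoxia and 22.1 CPM in the control (1.15), while Myd88, the adaptor of Toll-like receptors, had 36.4 and 23.2 CPM (0.48). In the stem cell list 0 of 6 measured genes were higher and 1, Mllt3, was lower (median -0.09).

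Genes of the MHC region on chromosome 17 stood at both ends of the ranking. Msh5 (35028605 to 35046745, log2 ratio -2.38) lies near H2-D1 (35262730 to 35267499, 2.10), H2-Q6 (35424850 to 35430055, 2.06) and H2-Q7 (35439155 to 35443773, 2.25) on GRCm38. H2-D1 differed by 1.81 to 2.04 in the other sets, and Msh5 by -0.12 in Car1-positive cells. The neighbourhood was noticed after the values were seen, and the part of differences between mice of this outbred stock cannot be told apart from that of the conditions.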
